A study of Mus musculus with 6 samples.

Results

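The JAK-STAT genes described here are *Stat3*, *Stat5a*, *Stat5b*, *Stat6*, *Jak1*, *Jak2*, *Socs1*, *Socs2*, *Socs3* and *Cish*, which were picked by symbol as the parts of this pathway best known in the mammary gland. A probe set, a group of short oligonucleotides that reads 1 transcript, was taken when the platform annotation gave it 1 symbol and that symbol was one of the 10 genes. All 10 genes were annotated, out of 18193 annotated genes on the array, with 26 probe sets among them. Of these genes 9 were tested, out of 12518 tested genes, and *Socs1* was too dim on most arrays to test. The samples were 3 mammary tumors of the acinar type, from female mice of mixed background carrying *K14-cre* and *Apc* CKO/+, and 3 control glands of the same age from mice without *cre*, with total RNA of each sample on 1 Affymetrix array. In the tumor mice the K14 promoter drives Cre in epithelial progenitors, and per the study all 3 tumors carried the recombined *Apc* Δ580 allele together with a truncation in the remaining *Apc* allele. The ages of these mice, and the parity and *Apc* genotype of the control mice, were not stated in the sources read. The study lists the *K14-cre* and *Apc* CKO/+ females of its tumor cohort as nulliparous (without litters), but does not say which of them gave the arrays.

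In JAK-STAT signaling a cytokine or hormone binds its receptor, Janus kinases bound to the receptor phosphorylate it, and STAT proteins dock there, are phosphorylated in turn and move to the nucleus as dimers. CIS (from *Cish*) and the SOCS proteins are made in response to active STATs and dampen the same receptors, so that the pathway limits itself. In the mammary gland prolactin acts through JAK2 and STAT5 to form milk-secreting alveoli, STAT6 takes part in the luminal lineage in pregnancy, and LIF acts through STAT3 to start the death of alveolar cells at weaning. The JAK and STAT proteins are switched by phosphorylation, which RNA arrays do not measure.

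*Stat5a* was the 1 gene of the 9 that passed the test, 4.13-fold higher in tumors, and no gene was called lower. Signals are MAS 5.0 values that the authors scaled to the same target on each array, values below 50 were raised to 50, and differences are log2 of tumor minus control with a standard error (SE) from limma. A gene was called at an adjusted p under 0.05 over all tested genes. Across the array 16.3% of genes were called higher and 16.8% lower, so that 1 call among 9 is not above the background. The median log2 fold change of the 9 genes was -0.17, against 0.07 for all tested genes. *Stat5a* and *Stat5b* had every tumor above every control gland, an order seen in 27.1% of all genes, and *Stat6* and *Socs3* had every tumor below, as in 23.1% of all genes. In the other 5 tested genes the groups overlapped. The samples are called biological replicates, but no source read states that each is from its own mouse, so p-values may partly measure the spread within a mouse.

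**Figure D1:**
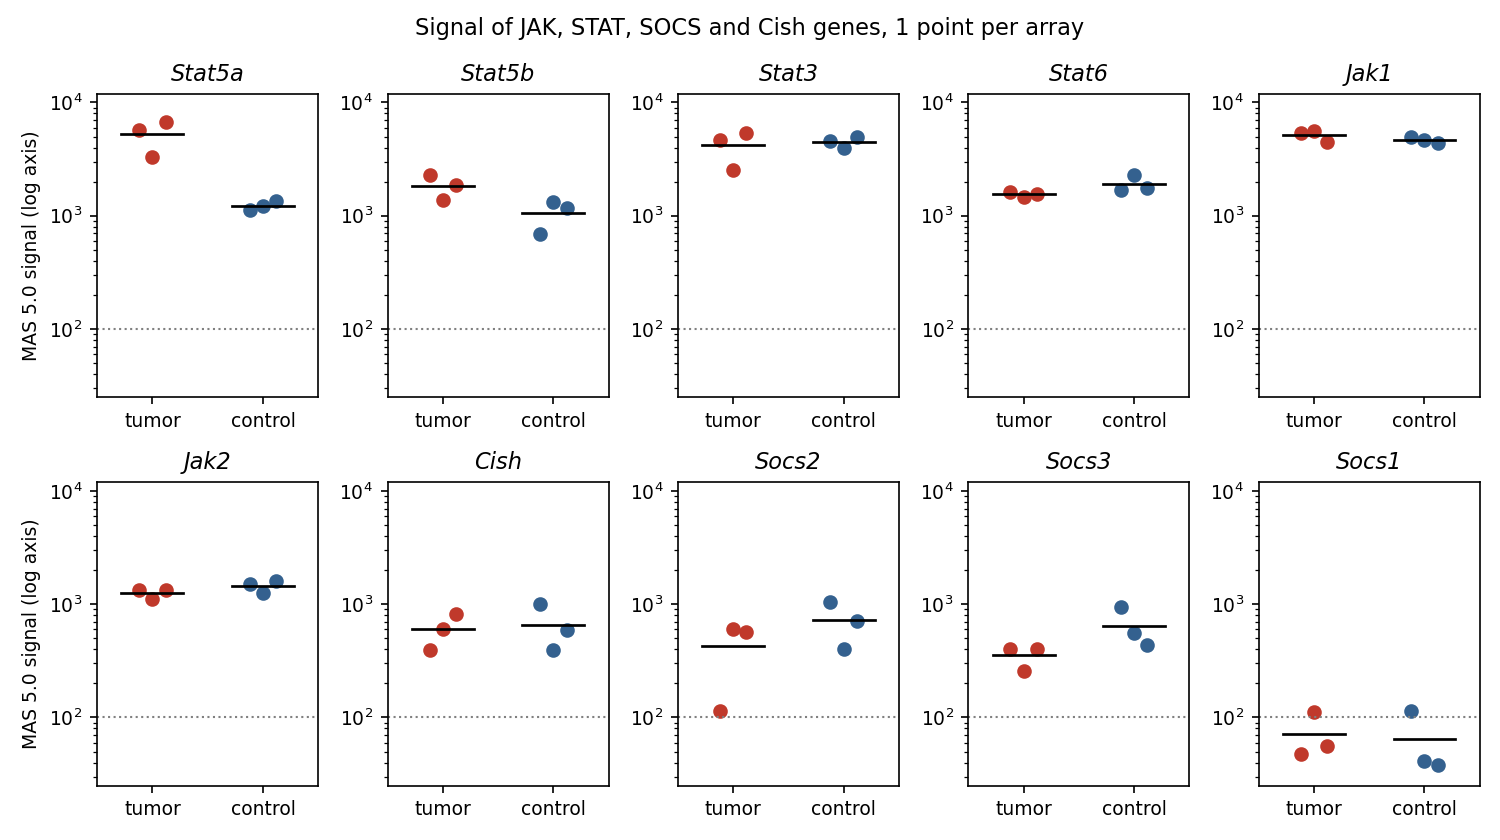
MAS 5.0 signal (log axis) of the 10 genes in 3 tumors (red, left) and 3 control glands (blue, right), 1 point per array, with the group mean as a bar. The dotted line marks a signal of 100, the filter limit. *Stat5a* stands clear of the control glands on all 3 tumor arrays, and *Socs1* lies near or under the line on all 6.

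The glands and tumors differed in their mix of cells, which bears on every value in bulk tissue, where fewer cells of a type and less RNA per cell cannot be told apart. Of the 9 pan-epithelial markers 8 were higher in tumors, with a summed signal of 86057 to 106697 in tumors and 13306 to 30226 in control glands. *Cldn3*, a tight junction protein, differed most, with a log2 fold change of 3.35, and control replicate 2 had the lowest epithelial sum. All 10 tested adipocyte markers of 12 listed were lower, with a sum of 1848 to 12513 in tumors and 151554 to 200118 in control glands. Of 10 fibroblast markers 9 were lower (4 without tumor replicate 2 or control replicate 3, 5 without control replicate 2), and their sum was 2750 to 16184 in tumors and 65747 to 79864 in control glands. Endothelial markers were lower for 8 of 10 (5 without control replicate 3). Macrophage markers were lower for 3 of 7 tested (1 without control replicate 1 or 2, and 1 higher without control replicate 1). Lymphocyte markers were lower for 3 of 4 tested (1 without tumor replicate 3 or control replicate 3). *Vwf* (endothelial) and *Cd79b* (lymphocyte) reached the filter limit in the control glands alone, so that they could be tested only because they were higher there. Leaving them out, 7 endothelial and 2 lymphocyte markers were lower. Of 8 basal and myoepithelial markers 3 were higher and 1 lower, with 0 or 1 higher when any array other than control replicate 3 was left out. None of the 6 skeletal muscle markers passed with all arrays. Their sum ran from 525 to 30556 in tumors and from 5616 to 131080 in control glands, with 5 of 6 called lower without tumor replicate 1 and 2 of 6 without control replicate 1. The part of this mix in the results below was not tested. *Apc* itself had signals of 1922.9, 1525.9 and 2006.1 in tumors and 1922.4, 2076.9 and 2148.9 in control glands (adjusted p = 0.534 by limma). This gives no check of the recombined allele, since where this probe set lies relative to the deletion was not examined.

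Among the kinases, *Jak2*, which sits on the prolactin and growth hormone receptors, had signals of 1346.8, 1119 and 1336.8 in tumors and 1514.4, 1263.4 and 1607.8 in control glands. The groups overlapped, with a log2 fold change of -0.20 (SE 0.21, 95% confidence interval -0.69 to 0.28, adjusted p = 0.487 by limma), and its other probe set gave -0.36. With all arrays set to equal medians the *Jak2* value was 0.03. *Jak1*, which serves the gp130, interferon and common gamma chain receptors, had signals of 5423.9, 5575.4 and 4490.4 in tumors and 4998.2, 4657.2 and 4402.9 in control glands. Its log2 fold change was 0.14 (SE 0.20, 95% confidence interval -0.33 to 0.60, adjusted p = 0.636), and its other probe sets gave 0.33 and -0.05. For both kinases the intervals leave out a 2-fold difference in either direction. Of the remaining kinases and STATs, *Stat2*, which carries type I interferon signals, had the largest p (-0.12 on the log2 scale, adjusted p = 0.754). *Jak3*, the kinase of the common gamma chain in lymphocytes, gave -1.28 (adjusted p = 0.0568), and *Tyk2*, the fourth Janus kinase, gave 0.29 (adjusted p = 0.401). None of these 3 tested genes of 5 listed was called. *Jak3* did pass without tumor replicate 3 (adjusted p = 0.0260 by limma) and with a floor of 100 (log2 fold change -1.14, adjusted p = 0.0421). The lymphocyte markers moved in the same direction as *Jak3*, and their part in its value was not tested.

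*Stat5a*, the main mediator of prolactin in alveolar cells, had signals of 5744.2, 3330.4 and 6781.2 in tumors and 1127.5, 1210.8 and 1349.7 in control glands. The lowest tumor, replicate 2, still lay well above the highest control gland, and the control glands were close together. The log2 fold change was 2.05 (SE 0.30, 95% confidence interval 1.35 to 2.74, adjusted p = 0.00263 by limma), and 3.18% of all tested genes had a larger one. A separate, dimmer *Stat5a* probe set read 1686.6, 678.5 and 1236.4 in tumors and 244.6, 365.5 and 386.6 in control glands. Its log2 fold change was 1.79 (adjusted p = 0.0107 in a limma fit over 26967 probe sets, where 11.7% were called higher and 14.6% lower). In the sum of pan-epithelial markers tumors were likewise higher on every array. The median log2 fold change of those 9 markers was 2.46, and the part of epithelial content in the *Stat5a* value was not tested. Control replicate 2, which had the lowest epithelial sum of the control glands, had a *Stat5a* signal between those of the other control glands.

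*Stat5b*, the close relative of *Stat5a* and the main mediator of growth hormone in liver, had signals of 2268.5, 1378.6 and 1876.8 in tumors and 693.8, 1318.2 and 1174.3 in control glands. The groups did not overlap, but tumor replicate 2 and control replicate 2 were nearly level. The log2 fold change was 0.82 (SE 0.32, 95% confidence interval 0.07 to 1.56), which passed at the unadjusted p of 0.0356 and not after adjustment (adjusted p = 0.0865 by limma). Its dimmer probe set gave signals of 292.2, 213.1 and 181.7 in tumors and 191.1, 166 and 137.1 in control glands, a difference of 0.46 on the log2 scale (adjusted p = 0.248). The difference between the changes of *Stat5a* and *Stat5b* was not tested. *Stat5a* and *Stat5b* are near-identical in much of their sequence, and how far their probe sets share signal was not tested.

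*Stat5b*, *Stat5a* and *Stat3* lie side by side on mouse chromosome 11, with no other protein-coding gene between them. *Stat3*, which acts downstream of LIF and IL-6, had signals of 4672.5, 2520.7 and 5336.9 in tumors and 4601, 3944.5 and 4982.1 in control glands. Tumor replicate 2 was the lowest of all 6 arrays and the other tumors lay among or above the control glands. The log2 fold change was -0.17 (SE 0.31, 95% confidence interval -0.91 to 0.56, adjusted p = 0.701 by limma), and its other 3 probe sets gave -0.24, -0.12 and 0.02. The value was 0.15 without tumor replicate 2 and 0.06 with equal array medians, and none of its 4 probe sets was called. *Stat6*, which answers IL-4 and IL-13, had signals of 1628.7, 1472.2 and 1558.6 in tumors and 1692.7, 2276.9 and 1746.8 in control glands. Every tumor lay below every control gland by a small margin, with a log2 fold change of -0.28 (SE 0.21, 95% confidence interval -0.78 to 0.21, adjusted p = 0.336), and its other probe set gave -0.22.

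**Figure D2:**
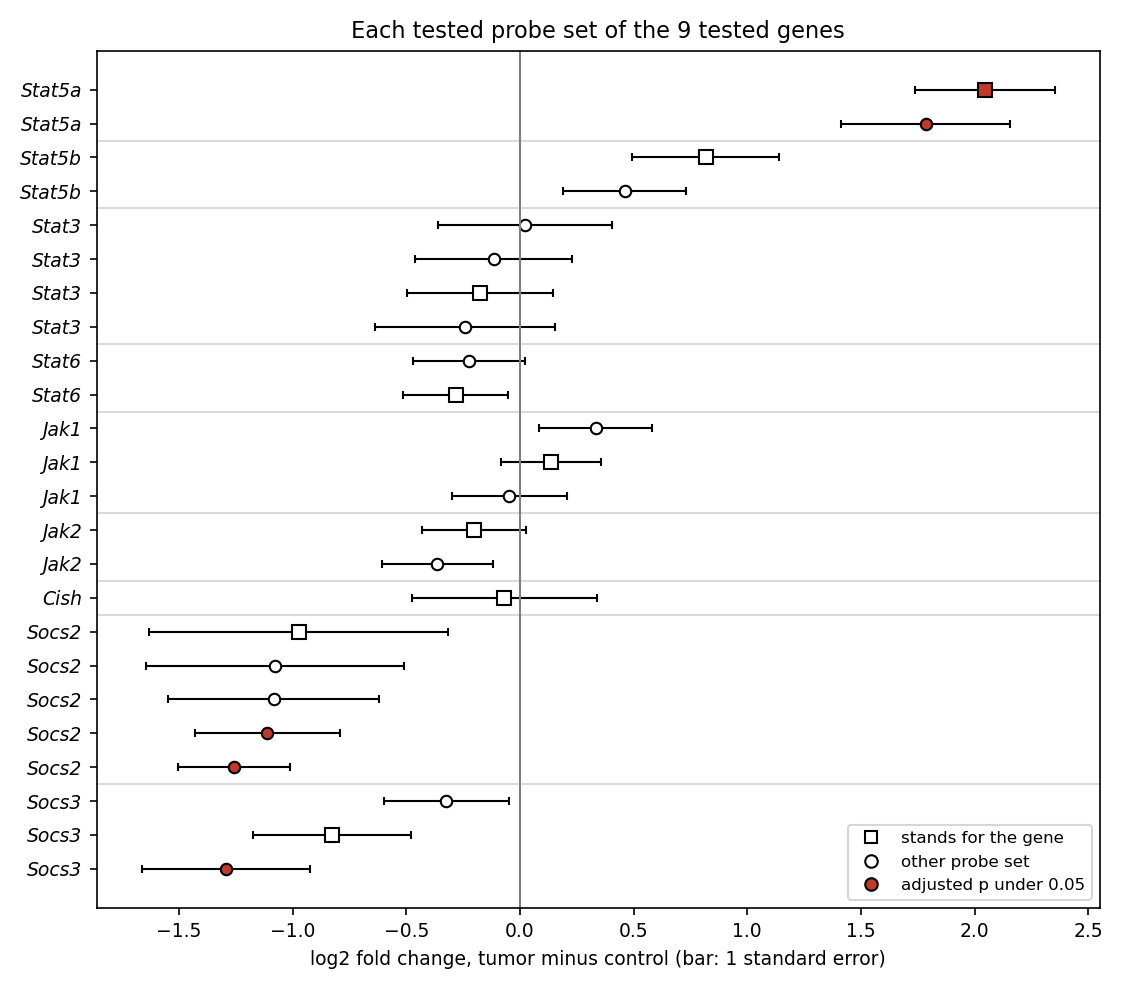
Log2 fold change (tumor minus control) of each of the 24 tested probe sets, grouped by gene, with 1 standard error on each side from the limma fit over 26967 probe sets. Filled symbols passed an adjusted p of 0.05. Those are 2 *Stat5a* sets to the right of 0 and 2 *Socs2* sets and 1 *Socs3* set to the left, and all tested *Socs2* and *Socs3* sets lie left of 0.

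None of the inhibitors was called over genes, although some of their probe sets were. *Cish*, which encodes CIS and is a classic STAT5 target, had signals of 397.2, 602.6 and 827 in tumors and 994.7, 390.7 and 588.4 in control glands. The groups overlapped in full, with the lowest and the highest array both among the control glands, and the log2 fold change was -0.07 (SE 0.41, 95% confidence interval -1.03 to 0.89, adjusted p = 0.910 by limma). Its sign changed when tumor replicate 1 or control replicate 1 was left out (0.21 and 0.28) and with equal array medians (0.17). *Socs2*, a brake on growth hormone signaling and also induced by STAT5, had signals of 115.2, 604.6 and 570.5 in tumors and 1051.4, 403.1 and 711.7 in control glands. The groups overlapped because control replicate 2 fell below 2 of the tumors, and tumor replicate 1 lay far under the rest. The log2 fold change was -0.97 (SE 0.67, 95% confidence interval -2.55 to 0.60, adjusted p = 0.302), and it was -0.19 without tumor replicate 1. In both genes tumor replicate 1 was the lowest tumor, control replicate 1 the highest control gland and control replicate 2 the lowest control gland.

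*Socs2* was read by 6 probe sets, which cover different parts of its transcripts or share its annotation, and 5 of them were tested. A dim *Socs2* set read 109.7, 132.3 and 95.2 in tumors and 320.4, 243 and 243.8 in control glands, with no overlap (log2 fold change -1.26, adjusted p = 0.00830 in the limma fit over probe sets). Another read 65.4, 84.6 and 94.9 in tumors and 257.4, 123.8 and 166.4 in control glands (log2 fold change -1.11, adjusted p = 0.0368). This dimmer set reached 100 in the control glands alone, so that it could be tested only because it was higher there. The remaining tested sets gave -0.97, -1.08 and -1.08 and were not called, and the sixth lay below 50 on 5 of 6 arrays. In the brightest set tumors 2 and 3 lay above control replicate 2, whereas in both called sets they lay below every control gland.

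*Socs3*, the main brake on STAT3 downstream of gp130, had signals of 399.1, 257 and 401.7 in tumors and 949, 559.6 and 433.9 in control glands. The groups did not overlap, although the highest tumor and the lowest control gland were close. The log2 fold change was -0.83 (SE 0.34, 95% confidence interval -1.63 to -0.02), with an unadjusted p of 0.0451 and an adjusted p of 0.103 by limma. A dimmer *Socs3* set read 231.9, 89.4 and 194.8 in tumors and 437.9, 388.2 and 349.6 in control glands (log2 fold change -1.29, adjusted p = 0.0359 over probe sets), and the third set gave -0.32 (adjusted p = 0.425). Both sets with the larger differences carry the suffix for probes that may also bind other transcripts, and the set with the small difference does not. *Socs1*, which blocks JAK kinases and limits prolactin signaling in the gland, had signals of 47.9, 112.1 and 55.7 in tumors and 113.1, 41 and 38.3 in control glands. Only 2 of the 6 arrays reached 100, 1 in each group, so no direction was read.

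In all, 2 of the 24 tested probe sets were called higher and 3 lower, shares below the 11.7% and 14.6% of all probe sets. Of the 3 lower sets, 1 (*Socs2*) had passed the filter through the control glands alone, which leaves 2. The 3 lower sets became 1 when any one of tumor replicates 2 and 3 or control replicates 1, 2 and 3 was left out. At an unadjusted p under 0.05, 2 of the 9 genes were higher (*Stat5a* and *Stat5b*) and 1 was lower (*Socs3*), where 23.4% of all genes were higher and 21.5% lower at that threshold.

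STAT dimers bind a palindrome of TTC and GAA set 3 bases apart, and the start regions of *Cish* and *Socs3* are shown because they alone, of the 9 genes with a window, held it. The windows are RefSeq sequence (GRCm38.p6) from 250 bases before to 50 bases after the annotated start, on the strand of the gene, and were found for 9 of the 10 genes (11 windows). The motif TTCNNNGAA, which reads the same on both strands, was in 2726 of 32851 mouse windows of this length (8.30%), and 150 windows (0.457%) held 2 or more copies. The window of *Cish* (chr9:107296409-107296708, plus strand) held 2 copies, which begin at bases 1 and 12 counted from the start. That of *Socs3* (chr11:117969317-117969616, minus strand) held 1, which begins 154 bases before the start. For comparison the window of *Csn2* (chr5:87699376-87699675, minus strand), the beta-casein gene and a textbook STAT5 target, held 1 copy, which begins 93 bases before the start. Of 13 STAT5-linked genes with a window 4 held the motif, and those of *Wap*, *Lalba*, *Elf5*, *Bcl2l1*, *Igf1* and *Wnt4* did not. The same TTC and GAA with 4 bases between them were in 6.95% of all windows and in 0 of the 11. Capitals mark the motif.
Cish: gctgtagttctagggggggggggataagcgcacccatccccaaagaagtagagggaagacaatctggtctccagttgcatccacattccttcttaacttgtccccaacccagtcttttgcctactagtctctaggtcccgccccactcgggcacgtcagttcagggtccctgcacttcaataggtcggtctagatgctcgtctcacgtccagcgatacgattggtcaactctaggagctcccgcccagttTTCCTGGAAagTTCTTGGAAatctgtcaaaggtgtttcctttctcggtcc
Socs3: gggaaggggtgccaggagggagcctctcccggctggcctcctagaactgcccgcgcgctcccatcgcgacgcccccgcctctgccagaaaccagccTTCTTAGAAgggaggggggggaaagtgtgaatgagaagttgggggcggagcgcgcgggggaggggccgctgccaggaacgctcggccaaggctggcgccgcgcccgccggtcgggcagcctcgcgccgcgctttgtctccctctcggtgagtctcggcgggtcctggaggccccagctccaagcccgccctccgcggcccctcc
Csn2: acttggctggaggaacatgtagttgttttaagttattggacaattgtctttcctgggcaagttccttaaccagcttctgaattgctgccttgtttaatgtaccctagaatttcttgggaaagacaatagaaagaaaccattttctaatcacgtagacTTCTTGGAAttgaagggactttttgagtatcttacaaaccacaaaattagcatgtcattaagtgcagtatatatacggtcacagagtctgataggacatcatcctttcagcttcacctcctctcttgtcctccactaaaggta
A match is a description of letters and shows no binding. In these tumors *Cish*, with 2 copies, had overlapping groups, and *Socs3*, with 1 copy, lay lower in every tumor without passing the test over genes.

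The genes listed as linked to STAT5 in the lactating gland were called no more often than genes in general. Of 16 listed genes 15 were tested, with 2 higher, 2 lower and 11 not called, against 16.3% and 16.8% of all genes, and a median log2 fold change of 1.15. *Ccnd1* (cyclin D1) had 15268.8, 16838.1 and 21087.4 in tumors and 4318.2, 2274.7 and 3983.6 in control glands (log2 fold change 2.37, adjusted p = 0.00156 by limma). *Bcl2l1*, which encodes the survival protein BCL-XL, differed by 1.15 on the log2 scale (adjusted p = 0.0235), and its call was lost without tumor replicate 1 or 3. *Igf1*, a growth factor made in stroma, was lower in tumors (log2 fold change -5.09, adjusted p = 0.000852), as was *Wnt4* (-2.34, adjusted p = 0.000448). *Wnt4* reached 100 in the control glands alone and 2 of its tumor signals lay below 50, so that its value was set by that floor (-2.89 with a floor of 16 and -1.36 with a floor of 100). The count of lower genes was 1 without any one control gland. In *Igf1* tumors were lower on every array, as in the fibroblast and adipocyte sums.

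The milk protein genes varied widely within both groups, and none was called. *Csn2* had signals of 27287.5, 4453.7 and 37206 in tumors and 7955.7, 103.6 and 23960.1 in control glands. Control replicate 2 was far below the rest. The groups overlapped because tumor replicate 2, the lowest tumor, lay below control replicates 1 and 3 (log2 fold change 2.61, adjusted p = 0.327 by limma). *Wap*, the whey acidic protein, had 1132, 114.4 and 13511.1 in tumors and 382.3, 45.4 and 9030.1 in control glands, with the third replicate highest in both groups (log2 fold change 1.11, adjusted p = 0.724). *Csn1s1* had 30657.1, 2490.4 and 34794.1 in tumors and 19726.3, 510.1 and 19513.9 in control glands, and *Lalba*, of lactose synthesis, had 474.2, 19.9 and 1767.6 in tumors and 70.5, 24 and 309.6 in control glands (adjusted p = 0.577 and 0.323). *Csn3* had 28229, 43115.8 and 42427.4 in tumors and 34711.6, 1569.9 and 18112.4 in control glands (adjusted p = 0.193). Without control replicate 2 the log2 fold change of *Csn1s1* was -0.50 and that of *Wap* -0.62. *Csn1s2b* had the largest p of the list (log2 fold change 0.48, adjusted p = 0.755). *Elf5*, a regulator of alveolar cells that acts beside STAT5, had 11689.6, 8066.8 and 13782 in tumors and 5047.2, 491.6 and 6054.5 in control glands. Every tumor lay above every control gland, but control replicate 2 was far below the others and the test was not passed (log2 fold change 2.14, adjusted p = 0.104). Unlike *Elf5* and the milk proteins, *Stat5a* was not low in control replicate 2.

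**Figure D3:**
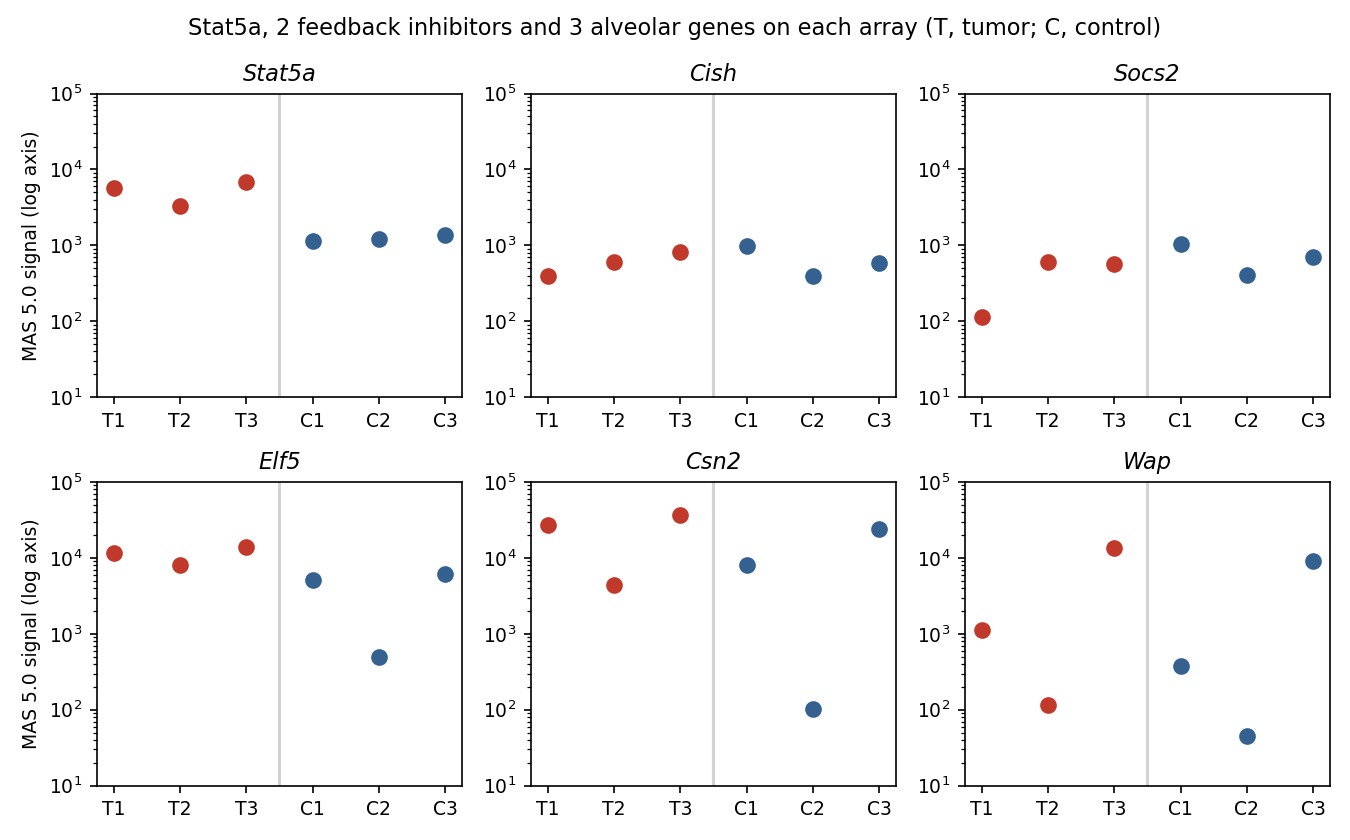
MAS 5.0 signal (log axis) of *Stat5a*, *Cish*, *Socs2*, *Elf5*, *Csn2* and *Wap* on each array, tumors (T1 to T3, red) left of control glands (C1 to C3, blue). *Stat5a* is level over the control glands at 1127.5 to 1349.7, whereas *Elf5*, *Csn2* and *Wap* drop in control replicate 2, to 491.6, 103.6 and 45.4.

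The tested receptors that feed the pathway were mostly lower in tumors. *Prlr*, the prolactin receptor gene, had no probe set annotated with its symbol alone and was not tested. Of 27 listed genes 21 were tested, with 12 lower, 1 higher and 8 not called, against the 16.8% of all genes called lower, and their median log2 fold change was -1.22. Their summed signal was 16059 to 18067 in tumors and 48478 to 54438 in control glands. *Ghr*, the growth hormone receptor, had 1380.3, 1495 and 2004.9 in tumors and 15339.6, 21649.7 and 18679.8 in control glands, 11.4-fold lower in tumors with no overlap (adjusted p = 0.000175 by limma). *Pdgfra*, a receptor kinase of fibroblasts, differed by -4.18, *Il7r* of lymphocytes by -3.25 and *Csf2rb*, the common beta chain of myeloid cells, by -2.31 (adjusted p = 0.000412, 0.000890 and 0.00353). *Il6st*, which encodes gp130, had 1439.1, 1511.6 and 1910.2 in tumors and 3984.8, 7416.9 and 4916.6 in control glands (log2 fold change -1.71, adjusted p = 0.00436). The gp130 partners *Osmr* and *Lifr* were lower too (-1.67 and -1.30, adjusted p = 0.00562 and 0.00557), but the mean over all *Lifr* probe sets gave 0.11. *Il15ra* was the gene called higher, with 2623.4, 2306.9 and 3323.4 in tumors and 855.9, 985.9 and 1001.1 in control glands (log2 fold change 1.52, adjusted p = 0.00263). *Ifngr2*, of the interferon gamma receptor, had the largest p (log2 fold change -0.06, adjusted p = 0.894). The adipocyte, fibroblast and lymphocyte sums given above were also lower in tumors, and their part in these values was not tested. *Pdgfra* is on the fibroblast list and *Il7r* on the lymphocyte list, so these 2 are part of those sums. Of the 12 lower receptors 1, *Lepr*, reached 100 in the control glands alone.

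Of 19 listed ligands only 7 reached the filter, with 3 lower and 1 higher, where 16.8% of all genes were lower and 16.3% higher. *Lep*, which encodes the fat hormone leptin and is also on the adipocyte list, had 7.1, 205 and 11.2 in tumors and 2467.5, 14817.6 and 5413.2 in control glands (log2 fold change -6.19, adjusted p = 0.00144 by limma). As 2 tumors lay below 50, its value was set by that floor (-7.28 with a floor of 16 and -5.52 with a floor of 100). *Il7*, a lymphocyte growth factor, was lower (-1.84, adjusted p = 0.00703). *Tslp*, an epithelial cytokine, lay below 50 in every tumor, at 38.6, 6.1 and 3.6, and at 190.1, 117.2 and 162 in control glands, at least 3.07-fold lower (adjusted p = 0.00271, and 0.0725 with a floor of 100). *Tslp* and *Il7* reached 100 in the control glands alone, and *Lep* in all control glands and tumor replicate 2. None of the 3 lower ligands would therefore have passed the filter without its control gland signals. With a filter at 200 the count of lower ligands was 1. *Il15*, which acts through *Il15ra*, had 578.9, 604.9 and 600.8 in tumors and 320.1, 337.9 and 277 in control glands, which is 0.94 on the log2 scale (adjusted p = 0.0102, and 0.0511 without control replicate 3). *Osm*, which encodes oncostatin M, had the largest p (log2 fold change 0.07, adjusted p = 0.857). Without any one control gland the count of lower ligands was 1.

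All 15 further inhibitors were tested, with 1 higher, 2 lower and 12 not called, shares below the 16.3% and 16.8% of all genes. *Pias1* had 3590.9, 2097.9 and 2898.3 in tumors and 1342.1, 915.1 and 1218.1 in control glands (log2 fold change 1.29, adjusted p = 0.0115 by limma). *Ptpn11*, the phosphatase SHP2, was lower (-1.06, adjusted p = 0.00866). *Ptprc*, which encodes the leukocyte phosphatase CD45 and is also on the lymphocyte list, was lower (-2.25, adjusted p = 0.0193), a call lost without tumor replicate 3 or control replicate 3. *Socs4* to *Socs7* were not called, with log2 fold changes of -0.12, -0.38, 0.57 and 0.15, and *Socs4* had the largest p of the list (adjusted p = 0.710).

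Genes linked to STAT3 in the acute phase response and in involution had a median log2 fold change of -0.15. Of these 20 genes 1 was higher, 3 lower and 16 not called, shares below the 16.3% and 16.8% of all genes. *Vegfa*, a blood vessel growth factor, had 662, 569.9 and 756.4 in tumors and 2297.3, 2336.7 and 2029.3 in control glands (log2 fold change -1.75, adjusted p = 0.00121 by limma). The lysosomal proteases *Ctsl* and *Ctsb*, which act in involution, were lower (-1.54 and -1.02, adjusted p = 0.0150 and 0.0125). *Myc* had 3050.3, 1937.2 and 2218.5 in tumors and 1000.8, 370.3 and 1300.3 in control glands (log2 fold change 1.59, adjusted p = 0.0364), and it was not called without tumor replicate 1, 2 or 3 or control replicate 1 (adjusted p = 0.0950, 0.0718, 0.0809 and 0.0551). *Saa1*, an acute phase protein, had 2259.4, 276 and 18628.8 in tumors and 143.5, 63.2 and 864.6 in control glands (log2 fold change 3.51, adjusted p = 0.119, and 0.0423 without tumor replicate 2). *Lcn2* gave 1.86 (adjusted p = 0.102, and 0.0464 without control replicate 1), and *Fos* had the largest p (log2 fold change -0.05, adjusted p = 0.939).

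Genes linked to STAT6 by IL-4 signaling, mostly in macrophages, had 3 of 7 tested members lower and 0 higher (1 higher without tumor replicate 1), out of 9 listed, where 16.8% of all genes were lower, with a median of -1.99. *Retnla*, a marker of IL-4-treated macrophages, had 328.4, 863 and 12.9 in tumors and 16681.5, 7052.7 and 16324.7 in control glands (log2 fold change -5.68, adjusted p = 0.00465 by limma). *Mrc1*, the mannose receptor, and *Cd209d*, a lectin, were lower (-3.24 and -2.44, adjusted p = 0.0212 and 0.00521), and *Cd209d* reached 100 in the control glands alone. *Arg1*, another gene of IL-4-treated macrophages, had 433.9, 7928.9 and 9377.6 in tumors and 411.7, 513.7 and 533.2 in control glands, so that tumors 2 and 3 were far above all other arrays (log2 fold change 2.72, adjusted p = 0.0911). *Mrc1* is also on the macrophage list, and its call was lost without any one control gland. Without control replicate 1 or 3 the count of lower genes was 1. *Gata3*, the luminal regulator, had the largest p (log2 fold change 0.64, adjusted p = 0.323). The macrophage sum was 6037 to 10502 in tumors and 18552 to 31419 in control glands, and its part in these values was not tested.

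**Figure D4:**
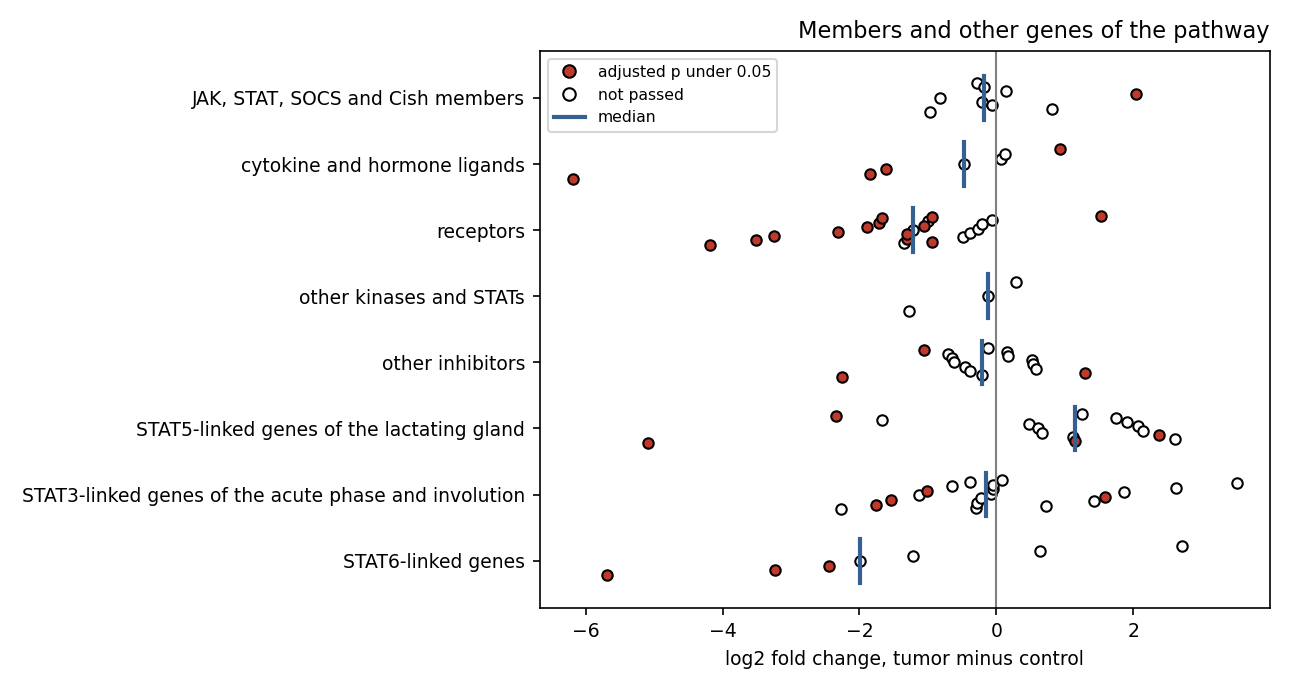
Log2 fold change (tumor minus control) of each tested gene of the JAK, STAT, SOCS and *Cish* group and of the lists of related genes, with the median as a vertical line. Filled points passed an adjusted p of 0.05. The 9 tested genes of the group center near 0 (median -0.17), whereas the receptors center at -1.22.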

How the data were processed

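Total RNA of 3 tumors and 3 control glands was hybridized to Affymetrix M430 2.0 arrays, 1 per sample. Deposited intensity values are MAS 5.0 signals that the authors computed in GCOS, in a version not stated, and scaled to a target of 500 on each array. The array holds 45101 probe sets, of which 64 are controls and were dropped, and 34945 had 1 symbol in the platform annotation, 932 several and 9160 none. Signals under 50 were set to 50. Probe sets of at least 100 on at least 3 of 6 arrays were kept (26967), and each of 12518 genes was represented by its brightest probe set by mean log2 signal. Scaling fixes no absolute level, so the levels of different genes were not compared with each other. Signals of different probe sets were used to pick the brightest set of a gene, and were summed within lists. The 3 arrays per group limit the precision. Array medians were 124 to 138 in tumors and 133 to 171 in control glands, and actin 3' to 5' ratios were 1.44 to 2.32 in tumors and 1.46 to 2.30 in control glands.

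Tumors were tested against control glands in limma 3.58.1 (lmFit, eBayes; R 4.3.3; 2-sided, Benjamini-Hochberg over all genes or all probe sets, threshold 0.05). The scripts were tested on simulated data. The members and lists were chosen with earlier results of these data known. The text names every member, up to 4 called genes of each list with the largest change, and the tested gene with the largest p. *Cldn3* stands for its marker list, and *Vwf* and *Cd79b* are named because of the filter. *Il6st*, *Lifr*, *Osmr*, *Il15ra*, *Jak3*, *Tyk2*, *Csn1s1*, *Csn2*, *Csn3*, *Wap*, *Lalba*, *Elf5*, *Saa1*, *Lcn2*, *Arg1*, *Lepr* and *Socs5* to *Socs7* were chosen after their values were seen. Listed genes that were too dim or had no single symbol were not analysed here. Each analysis was repeated under 20 alternatives, 1 of them chosen after seeing the data.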

Additional observations from a re-analysis of the deposited data

How the results depend on the processing

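*Stat5a* stayed higher in tumors and called in 18 of 19 alternatives that gave it a value, with log2 fold changes of 1.84 to 2.35, and no other member was called under any alternative. The number of members called higher was 0 in place of 1 without probe sets ending in _a_at, _s_at or _x_at, where all *Stat5a* and *Stat5b* sets drop out, and 0 with the methods' t-test on linear signals, where *Stat5a* had a statistic of 3.96 against a limit of 4.5 and a ratio of 4.30. By that t-test 0 members were called at its threshold, 0 after Benjamini-Hochberg and 0 at an unadjusted p under 0.05. The suffix _a_at marks several transcripts of 1 gene and not other genes. In an alternative chosen after seeing the data, without probe sets ending in _s_at or _x_at alone, 1 member was called higher, *Stat5a* (adjusted p = 0.00263 by limma), and 0 lower. Member probe sets called lower were 1 in place of 3 with equal array medians and with no filter, and those called higher were 1 in place of 2 with no filter. With equal array medians 4 STAT5-linked genes were called higher in place of 2, and 4 further inhibitors in place of 1. The methods' t-test left 7 receptors lower in place of 12, no filter left 4 fibroblast and 5 endothelial markers lower in place of 9 and 8, and without _a_at, _s_at and _x_at sets 4 pan-epithelial markers were higher in place of 8 (8 without _s_at and _x_at sets alone). With no filter *Myc*, *Bcl2l1*, *Ctsl*, *Mrc1* and *Ptprc* lost their calls. By the methods' t-test *Lep*, *Il7*, *Il15*, *Il7r*, *Csf2rb*, *Il6st*, *Pias1*, *Ptprc*, *Igf1*, *Myc*, *Ctsl*, *Retnla* and *Cd209d* were not called.

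Equal array medians moved the median log2 fold change of all genes to 0.31 from 0.07 and made 64.5% of calls higher, against 49.4%. With equal array medians *Stat3* was at 0.062, *Jak2* at 0.034, *Cish* at 0.17, *Ifngr2* at 0.18, *Stat2* at 0.12, *Socs4* at 0.12 and *Fos* at 0.19, all of opposite sign to the values above and below the shift of all genes; *Ctsb* lost its call, and *Elf5* and *Lcn2* were called. With quantile normalization *Ifngr2* was at 0.078 and *Stat2* at 0.079. With the mean over probe sets *Stat2* was at 0.0079, *Socs4* at 0.21, *Lifr* at 0.11 and *Tyk2* at -0.012, and with the methods' t-test *Fos* was at 0.077. With each array left out in turn the range was -0.39 to 0.28 for *Cish*, -0.39 to 0.15 for *Stat3*, -0.16 to 0.21 for *Osm*, -0.31 to 0.10 for *Ifngr2*, -0.38 to 0.40 for *Fos*, -0.25 to 0.0039 for *Socs4*, -0.70 to 1.20 for *Csn1s2b*, -0.63 to 3.12 for *Wap* and -0.50 to 2.49 for *Csn1s1*. The cause of these changes was not tested.

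Over all genes 2045 were called higher and 2098 lower. The methods' t-test called 685 and 920, the 2-fold limit left 1329 higher, and leaving out 1 array gave as few as 1241 higher and 1151 lower, both without control replicate 3. Same-numbered tumors and glands deviated from their group means with correlations of -0.21, -0.01 and 0.09, and the other pairs with -0.16 to 0.18. With 3 arrays per group these values cannot show whether replicate numbers pair the samples. With the replicate block 1 member was called higher, *Stat5a* (log2 fold change 2.05, adjusted p = 0.00920 by limma), and 0 lower, while *Wap* and *Saa1* passed. With 3 arrays per group, differences near the spread between arrays could not be called.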
